A study of Mus musculus with 13 samples.

Results

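Hippocampal glia exposed to amyloid beta were compared with hippocampal glia that were not, 1 library each, over 14890 of the 24542 gene symbols in the culture table. Amyloid beta is the peptide that aggregates into plaques in Alzheimer disease. A gene was kept when it reached 1 CPM (counts per 1000000 counts of the library) in at least one of the 2 libraries. Both libraries came, per the labels, from primary glia of postnatal day 1 pups of the ICR strain, an outbred mouse stock, and both had received a control lentivirus. The untreated library had no further treatment, and the other, called the amyloid beta control, had amyloid beta. No source used here gives the dose, the form of the peptide or the time of exposure. The series holds 13 libraries. The other 4 culture libraries are hippocampal glia with amyloid beta and a lentivirus carrying Nurr1 and Foxa2 (N+F), and the 3 matching libraries of cortical glia. The remaining 7 are hippocampal tissue of 3xTg mice, a transgenic Alzheimer disease model, 3 with a control AAV9 virus and 4 with N+F AAV9. With 1 library a group, no test between conditions was possible and no value below has a replicate error.

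Astrocytes and microglia are the cells of the brain that respond to amyloid. Microglia bind aggregates through scavenger and Toll-like receptors, signal through NF-kB to release cytokines and chemokines, and engulf and digest the peptide in lysosomes. Astrocytes answer these signals by making more intermediate filaments, complement and acute-phase proteins, while their support of synapses through glutamate uptake and ion buffering can fall. The comparison bears on which of these programs differed in hippocampal glia with amyloid beta.

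The untreated library held transcripts of many cells besides glia, so the libraries differed in cell content as well as in treatment. Snap25, a neuronal protein of vesicle fusion, was at 2093 CPM in the untreated library and 0.509 with amyloid beta. All 12 pan-neuronal markers summed to 15523 CPM in the untreated library and 366 with amyloid beta, and none of them had a count of 0 in either. The 13 markers of mature oligodendrocytes, the myelin-forming glia, summed to 9926 CPM without and 309.9 with amyloid beta. Ttr, the transthyretin of the choroid plexus, was at 4114 and 0.0803 CPM, and all 9 choroid plexus markers were lower with amyloid beta. Fibcd1, a marker of hippocampal pyramidal neurons, stood at 178 CPM in the untreated hippocampal library and 7.53 in the untreated cortical one. Of 13 hippocampal neuron markers 10 were lower with amyloid beta, 2 were higher and 1 was within 2-fold. The somatostatin gene Sst of inhibitory neurons, the tight junction gene Cldn5 of vessels and the haemoglobin gene Hba-a2 were at 169, 35.9 and 82 CPM without amyloid beta, and each had 0 counts with it. Of 12 inhibitory neuron markers 10 were lower and 0 higher, and 2 had 0 counts with amyloid beta. Of 12 endothelial markers 11 were lower and 0 higher, also 2 with 0 counts. The endothelial list summed to 302 CPM without and 124 with amyloid beta. All 5 kept red blood cell markers were lower.

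Genes of the later postnatal brain stood out in the library labelled untreated. The 15 genes listed for late postnatal maturation, such as Nrgn of dendritic spines (1111 CPM) and Mobp of compact myelin (405 CPM), had a median of 193 CPM there and 1.51 with amyloid beta. Their median ran from 70.0 to 101 CPM in the 7 tissue libraries, which were counted in a separate table. Vim, an intermediate filament gene that cultured astrocytes express strongly, was at 45.3 CPM in the untreated library and 8054 with amyloid beta. The Y-linked genes Ddx3y, Eif2s3y, Kdm5d and Uty had 0 counts in the untreated library and 32.2, 28.5, 14 and 11.1 CPM with amyloid beta, and the untreated cortical library had 0 counts of each as well. Xist, the transcript of the inactive X chromosome, was at 944 CPM without and 259 with amyloid beta. Across 16896 genes the rank correlation (Spearman's rho) of the untreated library was 0.982 with untreated cortical glia, 0.775 to 0.825 with the tissue libraries and 0.749 with its amyloid beta counterpart. The amyloid beta control had a rho of 0.982 with the cortical amyloid beta control, 0.981 with hippocampal N+F glia and 0.591 to 0.628 with tissue. These rho describe libraries that share genes and base composition, and they are not replicates of a condition. The labels describe both libraries as cultured glia of newborn pups, and the markers of the untreated one did not match that description. Treatment, cell content, the sex of the pups and the age of the cells therefore cannot be told apart in any value below, and fewer cells of a type cannot be told from less RNA per cell.

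**Figure D1:**
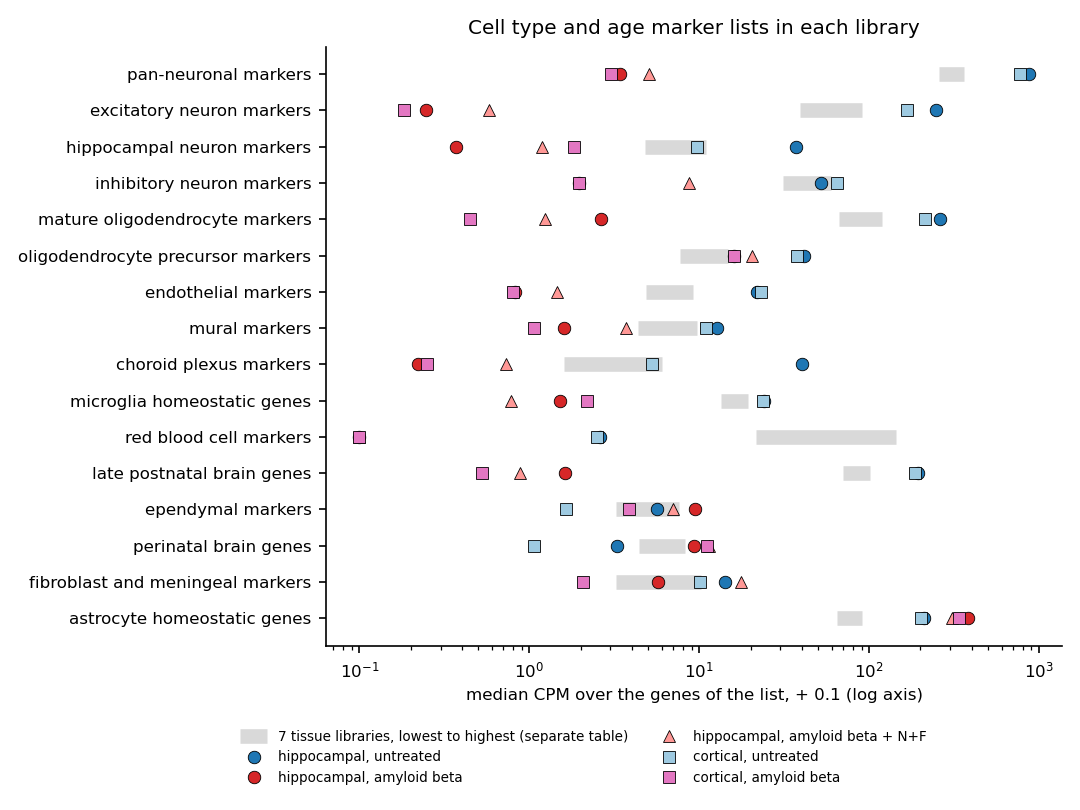
Median CPM + 0.1 over the genes of each marker list on a log axis. Points are single culture libraries, and grey bars span the 7 tissue libraries, which come from a separate table. Pan-neuronal, mature oligodendrocyte, endothelial and microglia markers sit far to the right in both untreated libraries (pan-neuronal median 865 CPM in hippocampal glia). They sit far to the left with amyloid beta (3.31 CPM), while the astrocyte list is at 209 and 382 CPM. Choroid plexus and hippocampal neuron markers are at 40.2 and 36.8 CPM in untreated hippocampal glia, but at 5.19 and 9.56 CPM in untreated cortical glia.

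Differences between the 2 libraries were wide. They are given as the difference of log2(CPM + 1), amyloid beta control minus untreated, a scale that understates the change of genes near 1 CPM. By this measure 3123 genes, 21.0% of those kept, were at least 2-fold higher with amyloid beta and 3819 genes, 25.6%, were at least 2-fold lower. The other 7948 genes, 53.4%, lay within 2-fold, and the median over all kept genes was -0.03. At 16-fold or more, 213 genes were higher and 700 lower. At 64-fold or more there were 29 higher and 201 lower, so the lower side had more of the extreme differences. These shares, 21.0% and 25.6%, are the background for the counts of gene lists below. The hippocampal libraries held 67579963 (untreated) and 74717389 (amyloid beta control) counts, so 1 CPM stands for more than 60 counts and counting error is small beside these differences.

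Secreted inflammatory and acute-phase genes made up most of the far end of the higher side. Lcn2, the iron-binding lipocalin that marks reactive astrocytes, was at 0.873 CPM without and 7535 CPM with amyloid beta, from 59 and 562987 counts. The ratio of its CPM was 8631 (95% counting interval 6691 to 11338). C3, the central complement component, stood at 1.45 and 6072 CPM, a ratio of 4187 (interval 3436 to 5157). The intervals cover counting error only, and the untreated counts of both genes, 59 and 98, lay above the floor of 3 counts. Serpina3h, a protease inhibitor, stood at 0.222 and 575 CPM, and it belongs to a cluster of near-identical genes between which reads may have been split. Ptx3, a pentraxin of innate immunity, was at 0.459 CPM without and 630.0 with amyloid beta. Tnfaip2, a gene induced by tumour necrosis factor, stood at 0.903 and 706 CPM. Chil1, a secreted chitinase-like protein of reactive astrocytes, stood at 6.82 and 2632 CPM. Steap4, a metalloreductase of inflamed cells, was at 1.57 and 841 CPM, and Cnn1, calponin of contractile cells, at 0.607 and 283 CPM. The last members of the 10 were Cxcl1 and Vim. In all 10 the hippocampal N+F library with amyloid beta also lay far above the untreated one, from 131 CPM for Cxcl1 to 5618 CPM for Vim.

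At the far end of the lower side stood Ttr and 9 genes of neurons. Hpca, a calcium sensor of hippocampal neurons, had 1419.5 CPM without and 0.120 with amyloid beta. Ddn, a dendritic protein, had 2635 and 1.71 CPM. Slc17a7, the vesicular glutamate transporter, had 1219 and 1.49 CPM. Vsnl1, another neuronal calcium sensor, had 489 CPM and then 0 counts, at least 12174-fold lower against a floor of 3 counts. Snap25, Nrgn, Rab3c and Cpne6 were also among the 10, with 5 to 38 counts each in the amyloid beta library. Among 32 synaptic vesicle and postsynaptic genes, 31 were lower and none higher, with a median of -4.95. Nlgn2, a postsynaptic adhesion molecule of inhibitory synapses, was the exception at 253 and 185 CPM. Stmn2, listed as pan-neuronal, was within 2-fold at 336 and 235 CPM. Synpo, listed for late postnatal maturation, was also within 2-fold, at 175 and 190.1 CPM.

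**Figure D2:**
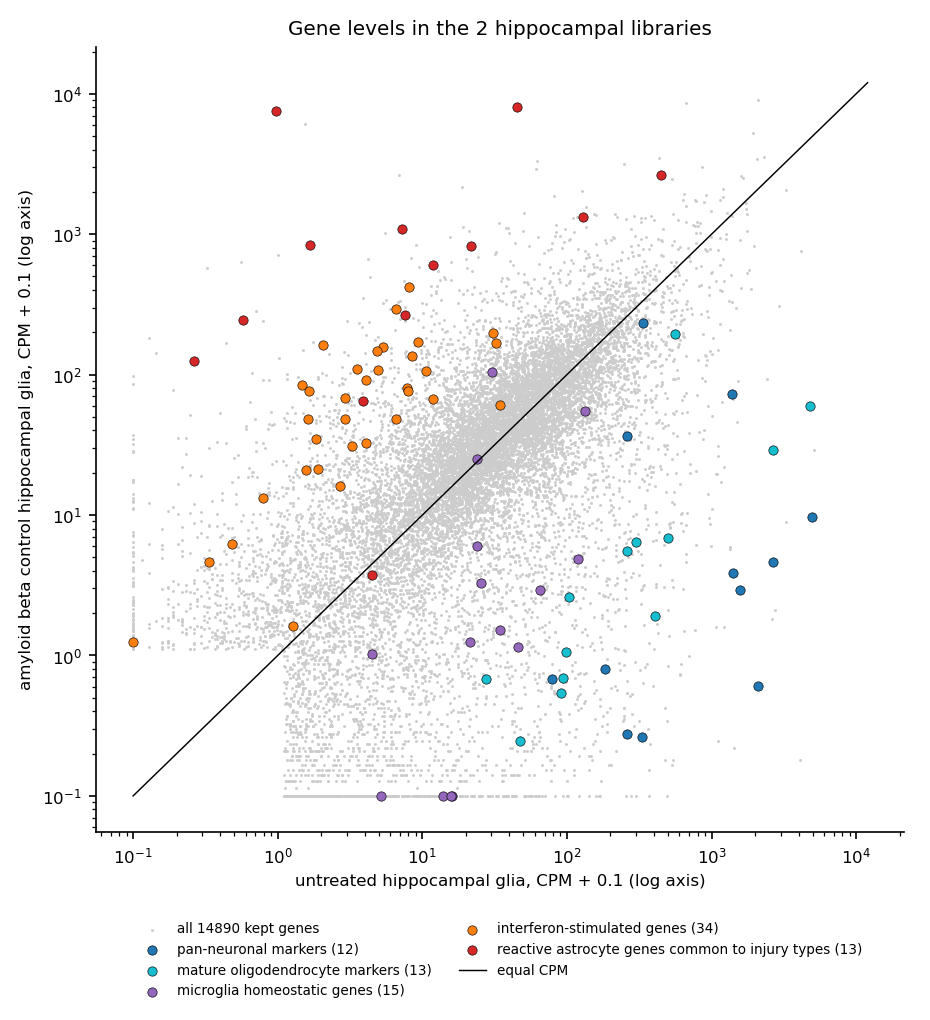
CPM + 0.1 of each kept gene in the untreated library (x axis, log) and the amyloid beta control (y axis, log), 1 library each. Neuronal, oligodendrocyte and most microglial markers lie below the line of equal CPM, and 32 of 34 interferon-stimulated genes and 12 of 13 common reactive astrocyte genes lie at least 2-fold above it.

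Receptors that bind amyloid beta and the Toll-like receptor pathway behind them were mostly higher with the peptide. Of 18 amyloid beta receptors, 10 were at least 2-fold higher, 1 was lower, 6 were within 2-fold and 1 stayed under 1 CPM. Their median difference was 1.18, against -0.03 over all kept genes. Tlr2, a surface receptor that senses fibrillar amyloid, was at 1.94 CPM without and 102 with amyloid beta, a ratio of 52.7 (interval 44.3 to 63.1). Prnp, the prion protein, was already abundant at 909 CPM and stood at 1916. The integrin gene Itga6 and the lipoprotein receptor gene Scarb1 were at 31.6 and 117 CPM and at 27.3 and 68.4 CPM. Trem2, the lipid and amyloid receptor of microglia, was the lower one, at 10.5 CPM without and 1.10 with amyloid beta. Lrp1, which clears amyloid beta by endocytosis, differed by 0.44.

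In the Toll-like receptor and NF-kB list, 18 of 29 genes were higher and none was lower, with a median of 1.53. Nfkbia, an inhibitor of NF-kB that NF-kB itself induces, was at 19.7 and 243 CPM. Nfkbiz, a member of the same gene family, was at 10.1 and 218 CPM. Lbp, which carries bacterial lipid to its receptor, stood at 18.2 and 155 CPM. Tlr3, an endosomal receptor for double-stranded RNA, stood at 21.9 and 104 CPM. The kinase scaffold Ikbkg and the kinase Irak1 were within 2-fold, by 0.90 and 0.33.

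Some chemokines had few or no counts in the untreated library and 35.3 to 182 CPM with amyloid beta. Cxcl1, a neutrophil chemokine, had 2 counts without amyloid beta and 13587 with it, 0.0296 and 182 CPM, and the interval of the ratio ran from 1701 to 50743. Ccl2, the main monocyte chemokine, had 0 counts without and 86 CPM with amyloid beta, at least 1936-fold higher against the floor of 3 counts. Cxcl10, induced by interferon, was at 0.163 and 124 CPM, and Ccl7 at 0.104 and 35.3 CPM. Altogether 12 of 24 listed chemokines were higher and 1 lower, 2 were within 2-fold and 9 stayed under 1 CPM in both libraries. With a pseudocount of 5 CPM in place of 1 the number higher was 6. The summed CPM of the list was 696 without and 839.7 with amyloid beta. The lower one was Cx3cl1, the fractalkine that neurons present to microglia, at 569 and 229 CPM. Cxcl14 and Cxcl12 differed by 0.46 and -0.41.

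Fewer of the classical cytokines passed the limits. Among 20 cytokines and inflammatory enzymes, 6 were higher, 1 was lower and 7 stayed under 1 CPM, and the median over all 20 was 0.39. At these low levels the result depended on the pseudocount. With 0.1 CPM in place of 1, 8 of the 13 kept genes were higher, and their median was 2.79 in place of 0.92. Csf1, the growth factor of microglia and macrophages, was at 32.1 CPM without and 748 with amyloid beta. Ptges, which makes prostaglandin E, was at 4.71 and 77.7 CPM, and the cytokine Lif at 0.755 and 15.6 CPM. Saa3, an acute-phase protein, had 0 counts without and 17.2 CPM with amyloid beta. Tnf, the tumour necrosis factor gene, was at 0.0888 and 1.93 CPM and past 2-fold, Il6 at 0.0592 and 1.00 CPM, and Il1b at 0.192 and 0.0937 CPM. These 3 were chosen for naming after their values were seen. Il18 was within 2-fold at 19.9 and 15.8 CPM, and Il33, an alarmin of astrocytes and oligodendrocytes, was lower at 48 and 7.56 CPM. On the receiving side 12 of 21 cytokine receptors were higher and none lower, among them Tnfrsf1a, a receptor of tumour necrosis factor (13.4 and 338 CPM), and Osmr of oncostatin M (7.50 and 265 CPM).

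Interferon-stimulated genes, which cells switch on against viruses, were nearly all higher with amyloid beta. Of 34 such genes, 32 were at least 2-fold higher with amyloid beta, none was lower and the median difference was 3.20. Their median level was 3.71 CPM without amyloid beta, 72.3 with it, and 2.37 to 4.97 across the 7 tissue libraries of the separate table. Ifitm3, a membrane protein that blocks viral entry, was at 8.01 and 423 CPM, although near-identical family members may share its reads. Ifit3, which binds viral RNA complexes, was at 6.48 and 291 CPM. Eif2ak2, the kinase that stops translation on viral RNA, was at 9.28 and 171 CPM. The 2 genes within 2-fold were Stat2, by 0.80, and Oas2, by 0.21. Both libraries had received lentivirus per the labels.

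All 15 genes of MHC class I presentation were higher, with a median of 2.83. H2-D1, a class I heavy chain, was at 40.0 CPM without and 640.2 with amyloid beta, and B2m, the light chain, at 64.1 and 617 CPM. H2-K1 and the peptide loading gene Tapbp were at 30.1 and 217 CPM and at 30.7 and 182 CPM. Reads of class I heavy chains may be split between similar copies. In MHC class II, the pathway of professional antigen-presenting cells, of 10 genes 2 were higher and 2 lower, near the background shares, and none passed 2-fold with a pseudocount of 5 CPM. Cd40 and Cd80 were the higher ones, at 3.92 and 2.44 CPM with amyloid beta, and Cd86 and H2-Aa the lower ones, at 0.0937 and 0.134 CPM.

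Promoter sequences of inflammatory genes that stood higher are shown so that the motif letters can be read beside the levels. They are from RefSeq on build GRCm38.p6, cover 250 bases before to 50 after the gene start, and are written 5′ to 3′ on the gene's strand with matches in capitals. A promoter was found by symbol for 11339 of the 14890 kept genes. The first motif was the classical consensus of the interferon-stimulated response element (ISRE), searched on both strands. It occurred in 0.17% of all 32851 promoters. Of the interferon-stimulated genes 24 had a known promoter, and 8 of those held a match. As 23 of the 24 were at least 2-fold higher, this list cannot show whether matches go with the difference. Among kept genes with a promoter it occurred in 0.291%, in 1.06% of those higher and in 0.142% of those lower. The 3 higher interferon-stimulated genes with a match and the highest CPM are printed, namely Ifitm3 on the minus strand of chr7:141010695-141010994, Ifit3 on the plus strand of chr19:34583279-34583578 and Bst2, which tethers budding virus to the cell, on the minus strand of chr8:71537423-71537722.
Ifitm3: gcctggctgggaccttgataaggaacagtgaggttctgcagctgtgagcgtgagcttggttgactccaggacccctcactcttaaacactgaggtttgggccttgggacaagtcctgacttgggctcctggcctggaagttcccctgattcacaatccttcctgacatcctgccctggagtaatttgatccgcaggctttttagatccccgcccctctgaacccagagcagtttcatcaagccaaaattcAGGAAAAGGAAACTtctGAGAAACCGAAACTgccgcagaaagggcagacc
Ifit3: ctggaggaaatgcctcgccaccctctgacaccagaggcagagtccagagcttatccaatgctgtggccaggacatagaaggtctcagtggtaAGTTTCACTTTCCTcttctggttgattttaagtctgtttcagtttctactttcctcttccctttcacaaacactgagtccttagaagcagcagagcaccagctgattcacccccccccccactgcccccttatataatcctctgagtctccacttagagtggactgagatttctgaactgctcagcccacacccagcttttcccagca
Bst2: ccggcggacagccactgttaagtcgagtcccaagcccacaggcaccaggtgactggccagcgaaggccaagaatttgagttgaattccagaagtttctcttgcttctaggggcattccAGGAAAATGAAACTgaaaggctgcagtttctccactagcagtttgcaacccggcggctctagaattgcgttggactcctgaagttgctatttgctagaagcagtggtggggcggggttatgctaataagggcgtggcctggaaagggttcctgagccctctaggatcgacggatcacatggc
Ifitm3 held 2 matches, beginning at bases 1 and 18 of the transcript. In Ifit3 the match began -158 bases from the start and in Bst2 -132 bases from it. Bst2 was at 4.75 CPM without and 148 with amyloid beta. A match describes letters and is not evidence of a bound factor.

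The second motif was the classical NF-kB consensus, also searched on both strands. It occurred in 8.46% of all promoters. Among kept genes with a promoter it was found in 12.8%, in 14.2% of those higher and in 13.9% of those lower. The 3 higher chemokine, cytokine or Toll-like receptor pathway genes with a match and the highest CPM are printed, Csf1 on the minus strand of chr3:107760420-107760719, Nfkbia on the minus strand of chr12:55492598-55492897 and Cxcl1 on the plus strand of chr5:90890995-90891294.
Csf1: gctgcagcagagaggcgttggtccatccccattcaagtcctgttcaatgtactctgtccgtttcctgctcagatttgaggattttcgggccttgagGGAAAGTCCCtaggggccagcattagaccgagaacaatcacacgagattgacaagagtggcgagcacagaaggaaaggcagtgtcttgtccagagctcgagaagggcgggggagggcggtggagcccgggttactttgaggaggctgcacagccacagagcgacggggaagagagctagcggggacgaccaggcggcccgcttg
Nfkbia: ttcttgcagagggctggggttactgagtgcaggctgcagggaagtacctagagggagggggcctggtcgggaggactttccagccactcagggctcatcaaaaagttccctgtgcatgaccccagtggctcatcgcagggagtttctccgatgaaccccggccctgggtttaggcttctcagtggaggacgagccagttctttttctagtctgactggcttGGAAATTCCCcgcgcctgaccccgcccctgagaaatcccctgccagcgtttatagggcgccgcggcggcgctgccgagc
Cxcl1: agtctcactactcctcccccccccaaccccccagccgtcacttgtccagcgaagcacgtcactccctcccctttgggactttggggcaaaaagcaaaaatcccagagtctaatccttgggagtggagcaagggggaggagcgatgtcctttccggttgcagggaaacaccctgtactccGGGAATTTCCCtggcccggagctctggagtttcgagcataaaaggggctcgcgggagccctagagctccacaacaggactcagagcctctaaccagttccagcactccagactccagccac
Cxcl1 held 2 overlapping matches that begin at -71 and -70 from the start, within one run of capitals. Nfkbia had its match at -29 and Csf1 at -154. Of all 16 chemokines with a known promoter 6 held the motif (4 of the 5 higher). Of 16 cytokines and inflammatory enzymes 4 did (2 of the 5 higher). Of 22 Toll-like receptor pathway genes 9 did (7 of the 14 higher). These counts cover only genes with a known promoter, and the full lists held 12, 6 and 18 higher genes. The NF-kB motif was not particular to these lists, since 7 of 24 interferon-stimulated genes and 6 of 13 MHC class I genes held it. The ISRE was in 0 of the 13 MHC class I genes, 16 chemokines, 16 cytokines and 22 Toll-like receptor pathway genes.

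Complement genes went both ways. C3 was the extreme, and C1s1 and C1ra, the serine proteases of the first component, were at 1.64 and 169.8 CPM and at 2.07 and 99.5 CPM. Serping1, their inhibitor, was at 10.4 and 181 CPM. The 3 chains of C1q, which microglia make, were lower: C1qa was at 57.2 CPM without and 9.81 with amyloid beta, C1qb at 52.7 and 4.60 CPM, and C1qc at 49.5 and 7.11 CPM. In all, 10 of 21 complement genes were higher and 8 lower, both above the background shares, although 5 were lower with a pseudocount of 5 CPM. The microglial marker Csf1r was lower alongside C1q, at 120.0 and 4.74 CPM, and its part in the C1q difference was not tested.

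**Figure D3:**
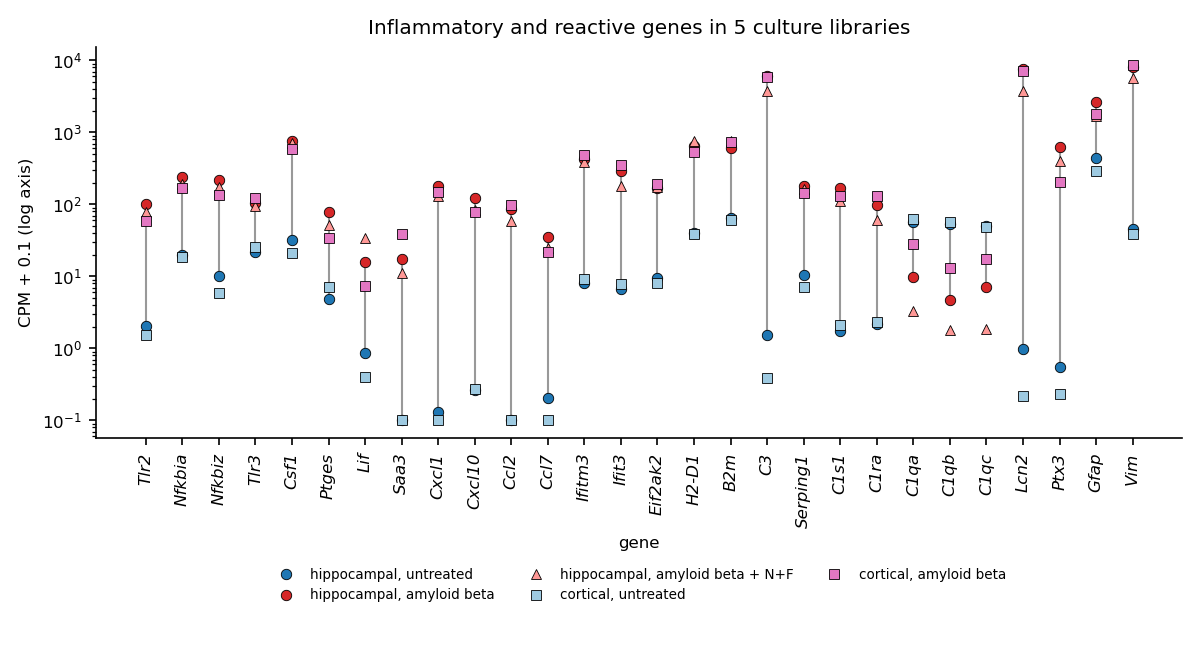
CPM + 0.1 on a log axis of 28 inflammatory and reactive genes in 5 single culture libraries, with a grey line joining the 2 hippocampal libraries compared. The amyloid beta control lies above the untreated library for all but C1qa, C1qb and C1qc, and the cortical pair (squares) is shown beside it, with Cxcl1 at 147 CPM and C3 at 5888 CPM in the cortical amyloid beta control.

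Reactive astrocyte genes were higher in nearly the whole list common to several injuries. Of 13 such genes 12 were higher, with a median of 5.58. Gfap, the astrocyte intermediate filament, was at 448 CPM without and 2625 with amyloid beta. Serpina3n, a secreted protease inhibitor, was at 128 and 1316 CPM, and the exception Aspg differed by -0.20. Genes described for neuroinflammation (8 of 12 higher) and for ischaemia (10 of 12 higher) had medians of 2.54 and 2.96. The first group included Ggta1, a galactosyltransferase (5.50 and 339 CPM), and Gbp2, an interferon-induced GTPase (4.00 and 91.8 CPM). Amigo2, an adhesion molecule also in that group, was lower at 29.8 and 5.34 CPM. The ischaemia group included Cd109, a binder of TGF-beta (6.69 and 328 CPM), and Tgm1, a transglutaminase, which had 3 counts without and 141 CPM with amyloid beta (interval of the ratio 1089.7 to 15450.0). Ptgs2, the inducible prostaglandin synthase, differed by -0.65.

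The list of homeostatic astrocyte genes went both ways, 6 higher and 7 lower of 20, with a median of -0.10 and summed CPM of 10697 and 10997. The higher and lower shares were 30.0% and 35.0%, against 21.0% and 25.6% of all kept genes. Aqp4, the water channel, was at 216 CPM without and 1403 with amyloid beta. Mlc1, Atp1b2 and Kcnj10, all of ion and water balance, were higher too, by 2.18, 1.58 and 1.40. Slc1a2, the main glutamate transporter of mature astrocytes, was at 4135 and 753 CPM, and Slc1a3, the other glial glutamate transporter, at 810.5 and 1151. The GABA transporter Slc6a11 was at 208 and 2.41 CPM, and Gpr37l1 and Ntsr2, receptors of mature astrocytes, at 210.5 and 32.9 CPM and at 139 and 12.8 CPM. Glul, glutamine synthetase, differed by -0.19. The summed level of the list was thus similar in both libraries while single members differed in opposite directions by more than 4-fold. Foxj1, a factor of ciliated ependymal cells, was at 20.2 CPM without and 571 with amyloid beta, and 4 of 8 ependymal markers were higher and 1 lower.

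Microglial genes were low in the amyloid beta library. Of 15 homeostatic microglia genes 13 were lower, 4 of them with 0 counts, and the median was -3.38. Cx3cr1, the fractalkine receptor, was at 65.5 CPM without and 2.81 with amyloid beta, P2ry12, a purine receptor of surveying microglia, at 46.1 and 1.06 CPM, and the growth factor receptor Csf1r as above. Sall1 was the higher one, at 30.1 and 104 CPM. The list of disease-associated microglia, in contrast, had 14 of 24 genes higher and 3 lower. Its higher members with the most counts were Apoe, the lipid carrier (1923 and 5274 CPM), the lysosomal proteases Ctsd (430.1 and 3490.1 CPM) and Ctsb (532 and 2456 CPM), and Timp2, a metalloproteinase inhibitor (326 and 1298 CPM), all of which astrocytes also express. Its lower members were Lpl, Tyrobp and Trem2, with Tyrobp, the signalling partner of Trem2, at 14.6 and 4.15 CPM. Cd68, a phagocyte lysosome marker, differed by 0.28.

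Lysosomal genes leaned higher, 15 of 26 with 2 lower and a median of 1.24. Lamp1 of the lysosomal membrane was at 398 and 1268 CPM, and Scarb2 at 184 and 488 CPM. The lower members included Ctss, a protease enriched in microglia, at 70.6 and 9.36 CPM. Psap, the saposin precursor, differed by 0.62.

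Most genes of amyloid precursor protein and its processing lay within 2-fold. Of 16 such genes 4 were higher and 1 lower, with a median of 0.37, a share of higher genes close to the 21.0% background. App itself was at 1747 CPM without and 1055 with amyloid beta. Aplp1, the neuronal family member, was at 1189.5 and 63.5 CPM. Adam9 and Adam17, proteases that can cut App outside the amyloid beta sequence, were at 67.3 and 152 CPM and at 23.8 and 73.4 CPM. Bace2, a relative of beta-secretase, was at 3.31 and 40.8 CPM, and Aph1a of gamma-secretase at 44.5 and 97.8 CPM.

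In amyloid clearance and lipoprotein handling 8 of 19 genes were higher and 2 lower. A2m, a protease inhibitor that binds amyloid beta, was at 8.21 CPM without and 676 with amyloid beta. Abca1, which loads lipid on Apoe, was at 64.8 and 379 CPM, while the related exporter Abcg1 was at 79.3 and 3.76 CPM. Ide, a protease that degrades amyloid beta and insulin, was at 56.6 and 169.6 CPM. Clu, an extracellular chaperone, differed by 0.82.

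Most cytoskeletal and matrix genes were higher with amyloid beta. Of 25 actin and intermediate filament genes 20 were higher and 2 lower, with a median of 3.40. Acta2, smooth muscle actin, was at 15.5 CPM without and 962 with amyloid beta, and the actin crosslinker Flna at 159.9 and 858 CPM. The lower members were the epithelial keratins Krt18 and Krt8, at 5.98 and 0.187 CPM and at 3.55 and 0.107 CPM. Actb, the ubiquitous actin, differed by -0.03. Of 10 mural markers 7 were lower (4 with a pseudocount of 5 CPM), with Rgs5 of pericytes at 132 and 2.85 CPM, and Acta2 and Tagln (9.31 and 588 CPM) were its 2 higher members.

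Of 15 collagens 12 were higher and 1 lower, and of 20 other matrix genes 12 were higher and 5 lower (3 lower with a pseudocount of 5 CPM). Col12a1 was at 14.1 and 498 CPM and Col5a2 at 19.3 and 287 CPM. Thbs1, a thrombospondin that astrocytes release to promote synapses, was at 5.43 CPM without and 1023 with amyloid beta. Thbs4, another thrombospondin of the list, was lower at 22.0 and 0.161 CPM. Tnc, the tenascin of injured and developing tissue, was at 15.6 and 635 CPM, Fn1, fibronectin, at 84 and 1172 CPM, and Sparc at 136 and 1559.6 CPM. Its relative Sparcl1, which promotes synapses, was lower at 1977 and 829 CPM, and the fibroblast proteoglycan Dcn at 43.5 and 2.19 CPM. Fibroblast and meningeal markers divided into 5 higher and 4 lower of 13, or 38.5% and 30.8%, against 21.0% and 25.6% of all kept genes. Metalloproteinases and inhibitors had 12 of 17 genes higher, led in size by Timp1, an inhibitor induced by cytokines, at 0.474 and 243 CPM.

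Higher genes were found both among those of cell division and among those that halt it. Of 26 proliferation genes 18 were higher and none lower, with a median level of 2.40 CPM without and 7.30 with amyloid beta. At these low levels the count depended on the pseudocount, and with 5 CPM in place of 1 it was 8 of 26. Ccnd1, cyclin D1, was at 49.6 and 1062 CPM, and Top2a of dividing cells at 3.06 and 33.9 CPM, while the replication clamp Pcna differed by 0.25. Cdkn1a, the p21 inhibitor of cyclin-dependent kinases, was at 8.92 CPM without and 843 with amyloid beta. IGF binding proteins were abundant with amyloid beta, Igfbp2 at 61.5 and 3335 CPM, Igfbp3 at 18.9 and 2159 CPM and Igfbp5 at 247 and 3152 CPM. Igfbp6 and Cdkn1c were lower, by -2.77 and -2.61. In this list 13 of 18 genes were higher and 2 lower.

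Most antioxidant and metal-handling genes were higher, while most genes of the unfolded protein response lay within 2-fold. Of 20 antioxidant genes 16 were higher and none lower, with a median of 2.16. Nfe2l2, the transcription factor of that response, was at 20.1 CPM without and 669 with amyloid beta. Prdx6 and Prdx1, peroxiredoxins, were at 81.2 and 1873 CPM and at 136 and 672 CPM, and Txnrd1, thioredoxin reductase, at 54.2 and 821 CPM. Of 12 metallothionein and iron genes 7 were higher and 2 lower. Fth1, the ferritin heavy chain, was at 2111 and 9006 CPM, and the metallothioneins Mt1 and Mt2 at 136 and 1124 CPM and at 89 and 968 CPM. Trf, the transferrin made by oligodendrocytes, was lower at 367 and 21.4 CPM. In the unfolded protein response 4 of 20 genes were higher and 1 lower, with a median of 0.55, Atf3 at 0.769 and 16.9 CPM and Atf4 at 128 and 52.4 CPM.

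Most oxidative phosphorylation and cholesterol genes lay within 2-fold, while glycolysis genes leaned higher. Of 21 glycolysis and lactate genes 8 were higher and 1 lower, with a median of 0.79. These were 38.1% and 4.76%, against 21.0% and 25.6% of all kept genes. Slc16a1, the lactate transporter, had the widest difference among those named, at 50.3 and 1407 CPM, and Pgk1 and Ldhb stood at 327 and 1217 CPM and at 346 and 1301 CPM. Eno2, the neuronal enolase, was lower at 856 and 94.1 CPM, while Eno1, the general one, was at 780.2 and 1733 CPM. Only 2 of 30 oxidative phosphorylation genes were past 2-fold, Sdhc and Sdhd of complex II, both higher. Of 21 cholesterol genes 1 was higher and 3 were lower, below the background shares. Insig1, which holds back cholesterol synthesis, was at 74.7 and 14.7 CPM, and Cyp46a1, the brain's cholesterol hydroxylase, at 163 and 71.5 CPM.

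Growth factors and early response genes divided. Of 25 neurotrophic factors and TGF-beta ligands 13 were higher and 5 lower. Tgfb3 and Tgfb2 were at 13.7 and 179.9 CPM and at 64.5 and 154 CPM, and Vegfa, the vascular growth factor, at 85.1 and 213 CPM. Bdnf, the neuronal growth factor, was lower at 37.7 and 6.95 CPM, and Igf2, which meninges and choroid plexus make, at 119 and 3.69 CPM. Of 20 immediate early genes 6 were higher and 8 lower, or 30.0% and 40.0%, against 21.0% and 25.6% of all kept genes. Those of active neurons were among the lower ones, with Egr3 at 88.3 and 0.683 CPM and Arc at 83.4 and 2.13 CPM. Junb and Ier3 were among the higher, at 37.7 and 219 CPM and at 3.95 and 190.4 CPM. The neuronal members moved with the neuron markers given above, whose part in them was not tested.

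**Figure D4:**
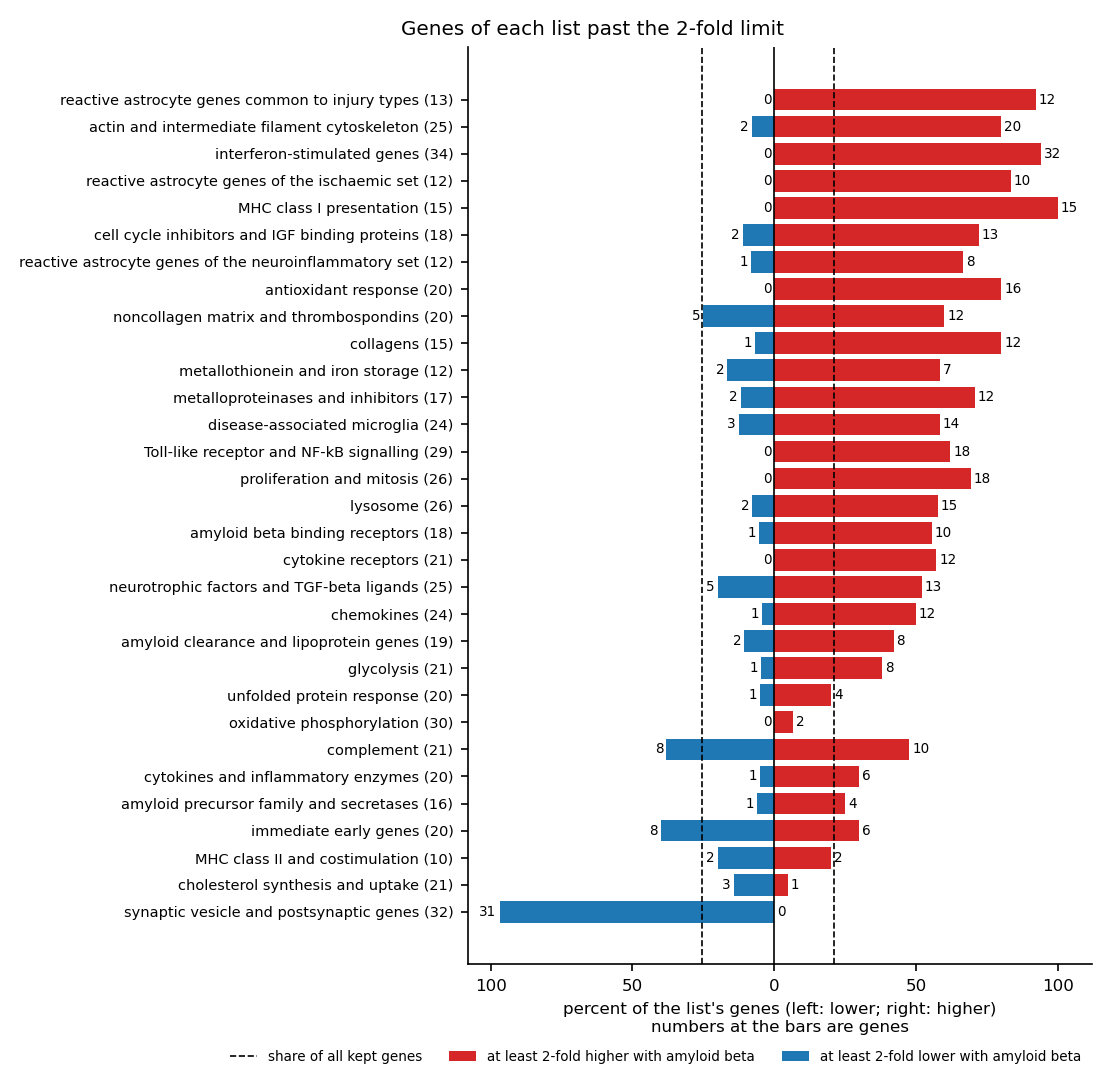
Percent of the genes of each pathway list that were at least 2-fold higher (right) or lower (left) with amyloid beta, out of all genes of the list (number in brackets); dashed lines mark the shares of all kept genes, 21.0% and 25.6%. Lists are ordered by the median difference over their genes, from reactive astrocyte genes (5.58) at the top to synaptic genes (-4.95) at the bottom.

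Progenitor and regional genes did not move as one group. Of 17 perinatal brain genes 7 were higher and 5 lower (1 lower with a pseudocount of 5 CPM). Sox4 and Igfbpl1 were at 13 and 101 CPM and at 5.13 and 86.7 CPM, and Dcx of young neurons at 37.6 and 2.09 CPM. Of 11 oligodendrocyte precursor markers 5 were lower and 1 was higher. Sox10, the factor of the whole oligodendrocyte lineage, was at 78.7 and 0.549 CPM, while Olig1 differed by 0.30. Among 20 forebrain patterning factors 6 were higher and 5 lower. These were 31.6% and 26.3% of the kept genes of the list, against 21.0% and 25.6% of all kept genes. Id3 was at 38.4 and 491 CPM and Sox2 of neural stem cells and astrocytes at 52.7 and 324 CPM. Otx2, which choroid plexus expresses, was at 14.6 and 0.134 CPM.

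The factors delivered elsewhere in the study were low with amyloid beta alone. Nr4a2, the gene of Nurr1, a nuclear receptor of dopamine and some cortical neurons, was at 58.3 CPM without and 3.35 with amyloid beta, against 488 in the N+F library. Foxa2, a forkhead factor, had 0 counts in both libraries and 140.3 CPM in the N+F library. Mapt, the neuronal tau gene, was at 549 and 14.6 CPM. Thy1, whose promoter drives the transgenes of the 3xTg tissue, differed by 0.10.

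Cortical glia gave the same comparison with 2 other libraries, and their untreated library carried the same foreign markers. There 2927 genes (19.8% of 14786) were higher and 3753 (25.4%) lower with amyloid beta. Of the genes higher in hippocampal glia 2408 were also higher in cortical glia, which is 77.1% of the hippocampal and 82.3% of the cortical list. The shared lower genes numbered 3123, or 81.8% and 83.2%. Reactive astrocyte genes common to injuries had a median of 6.05 in cortical glia against 5.58 here, interferon-stimulated genes 3.67 against 3.20 and homeostatic microglia genes -3.29 against -3.38. Hippocampal neuron markers were the wider difference here, -4.25 against -0.92, and choroid plexus markers -4.30 against a cortical median of -1.64. The untreated libraries already differed in these lists. Hippocampal neuron markers had a median of 36.8 CPM in untreated hippocampal glia and 9.56 in untreated cortical glia. Choroid plexus markers had 40.2 and 5.19 CPM. With amyloid beta the medians were 0.268 and 1.73 CPM for the neuron list and 0.120 and 0.148 CPM for choroid plexus. With 1 library in each group none of these differences between regions was tested.

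**Figure D5:**
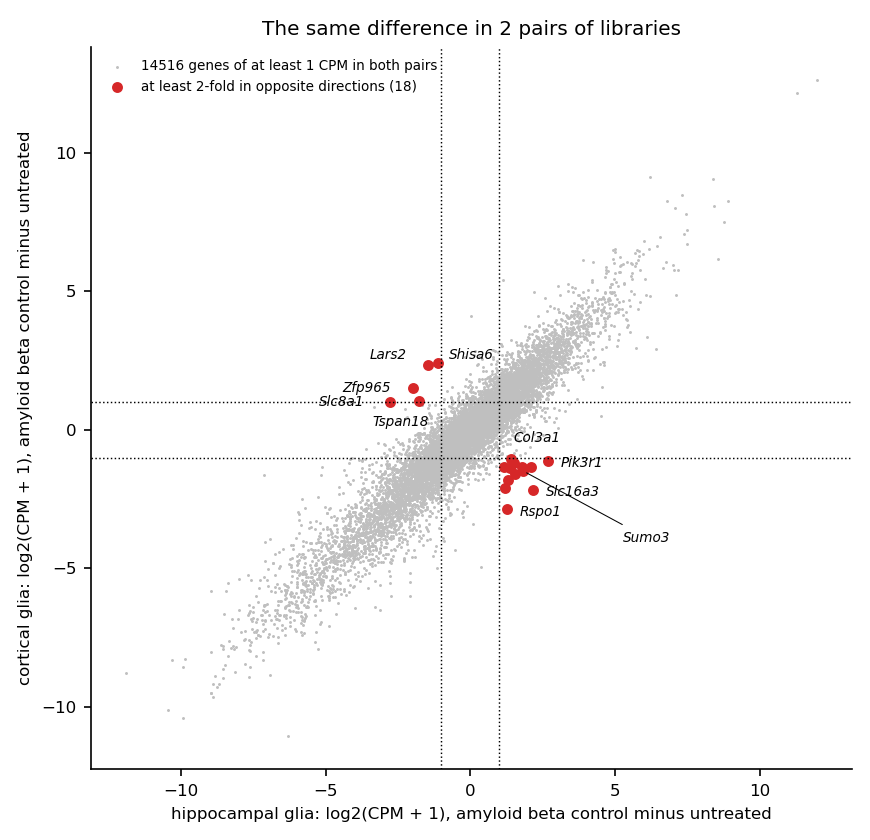
Difference of log2(CPM + 1), amyloid beta control minus untreated, in hippocampal glia (x axis) and cortical glia (y axis) for 14516 genes of at least 1 CPM in both pairs. Most genes lie along the diagonal, and 18 genes (red) passed 2-fold in opposite directions.

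Collagen and metabolic genes were among the 18 genes that passed 2-fold in opposite directions, 13 higher here and lower in cortical glia and 5 the reverse. Slc16a3, a lactate exporter, was at 3.48 and 19.2 CPM here, against 7.78 and 0.939 for the cortical pair. Pik3r1, a regulatory subunit of PI3-kinase, was at 45.6 and 298 CPM here and 219 and 99.4 in cortical glia, and Col3a1 at 6.76 and 31.7 CPM against 6.40 and 1.96. In the other direction Slc8a1, the sodium-calcium exchanger, was at 292 and 41.4 CPM here and 17.9 and 36.9 in cortical glia. Shisa6, an AMPA receptor partner, was at 172 and 79 CPM here and 12.3 and 70.8 there. For Slc8a1 and Shisa6 the untreated libraries of the regions differed more than the amyloid beta libraries did.

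Genes near the limits show what the rules kept out. At the 1 CPM limit Cdh26 was just inside, at 0.340 and 1.00 CPM, and Clec4a2 just outside, at 0.991 and 0.656 CPM. At the 2-fold limit Wbp5 was just inside at 58.5 and 118 CPM and Elk4 just outside at 9.69 and 20.4 CPM. On the lower side Hirip3 was just inside at 23.6 and 11.3 CPM and Pantr1 just outside at 30.2 and 14.6 CPM.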

How the data were processed

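RNA was extracted with Trizol and SMARTER mRNA-seq libraries were made from it, per the labels' protocols. The deposited values are whole-number counts per line of a gene symbol, made by the authors; TopHat, HISAT2, edgeR and the human build hg19 are named in the submitters' processing notes, without roles. The build behind the mouse counts was treated as not established, and printed coordinates belong to the RefSeq promoters alone. No source used here states how strand was handled. The culture table had 36780 lines for 24542 symbols, and lines of a symbol were summed, which may count a read more than once. Of the 14890 kept symbols 14863 matched a current or older mouse symbol. Every column matched 1 sample title, and 0 sample columns were left unused. Culture libraries held 52189025 to 78273121 counts and tissue libraries 10194437 to 25139406.

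CPM used the library total. Differences are log2(CPM + 1), with no test, because each group had 1 library. "Higher" and "lower" mean at least 2-fold on that scale. Ratios of CPM carry a 95% counting interval (exact conditional binomial), and a count of 0 was set at a floor of 3 counts per library. The calculation was tested on simulated data. Gene lists numbered 50. The members and lists were chosen with earlier results of these data known. Named genes were the 10 highest and 10 lowest differences, per list up to 4 higher and 4 lower members of highest CPM with up to 2 within 2-fold, 5 study genes, up to 5 genes each way opposite to cortical glia, the 2 genes on each side of each limit, and up to 3 genes per promoter motif. The motifs were the classical ISRE and NF-kB consensus patterns, taken up after matches to looser patterns had been seen. Values of 4 named genes are not reported here. Alternatives were TMM (edgeR 4.0.16 in R 4.3.3) and median-of-ratios scaling, pseudocounts of 0.1 and 5 CPM, a limit of 5 CPM, no limit, the highest line of a symbol and symbols with 1 line. Tools were Python with pandas and numpy.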

Additional observations from a re-analysis of the deposited data

Results flagged for a closer look

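These genes were singled out because they passed 2-fold in opposite directions in the hippocampal and cortical pairs; the difference between regions was not tested, since each group had 1 library. Values are the hippocampal minus the cortical log2 difference. Slc16a3, a lactate exporter, had 4.35 (2.17 and -2.18). Rspo1, an activator of Wnt signalling, had 4.12 (1.25 and -2.87). Pik3r1 had 3.81 (2.68 and -1.13). Col3a1, a fibrillar collagen, had 3.40 (2.07 and -1.32). Sumo3, a protein modifier, had 3.29 (1.81 and -1.48). On the other side Lars2, the mitochondrial leucyl-tRNA synthetase, had -3.80 (-1.45 and 2.35). Slc8a1 had -3.79 (-2.79 and 1.01) and Shisa6 -3.54 (-1.11 and 2.43). Zfp965, a zinc finger gene with 199 and 0 counts in hippocampal glia, had -3.49 (-1.98 and 1.51). Tspan18, a tetraspanin, had -2.84 (-1.79 and 1.05).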

How the results depend on the processing

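Neither scaling nor pseudocount moved the number of all genes higher or lower by 1.5 times, but counts of lists with low levels did move. With a pseudocount of 5 CPM the number higher was 6 in place of 12 for chemokines and 8 in place of 18 for proliferation genes, and the number lower was 5 in place of 8 for complement, 3 in place of 5 for noncollagen matrix, 4 in place of 7 for mural markers and 1 in place of 5 for perinatal genes. MHC class II genes went from 2 higher and 2 lower to 0 of each. With a pseudocount of 0.1 CPM the number higher was 8 in place of 6 for cytokines and stayed 12 for chemokines. With symbols of 1 line many lists had fewer genes to count. The number of genes at least 2-fold higher was 3123 as reported and ran from 2085 (symbols with 1 line) to 3403 (pseudocount 0.1 CPM) over 8 alternatives. The number lower was 3819 and ran from 2388 to 4141. Its value of 2388, with symbols of 1 line, was the one outside 1.5 times, where 9688 genes were kept in place of 14890. TMM gave 3230 higher and 3740 lower, and the median over all genes was -0.06 to 0.03 across the alternatives. All 35 lists with a median difference of at least 1 in size, over their kept genes, kept its sign under each alternative, and no named gene past 2-fold changed sign. At a pseudocount of 5 CPM 28 of the 35 lists still had a median of 1 or more. No library could be left out, because each group had 1, and without the untreated library there is no comparison. No paired analysis was possible because each group had 1 library and the result comes from no test.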
